A study of Mus musculus with 25 samples.

Results

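Cytochrome P450 families 2 and 3 of the mouse jejunum were taken as every gene of the deposited FPKM table whose symbol is Cyp2 or Cyp3, 1 subfamily letter and a number. The pattern held 50 of the 35723 genes in that table. Of these, 35 had enough counts to be tested, and 15 had too few. The pattern leaves out symbols with a further letter or suffix, such as Cyp3a41a and Cyp3a41b.

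Mouse pups were assigned at postnatal day 14 to 5 groups, and jejunal RNA was sequenced from 5 samples of each. Pups of the Control group went on suckling and were taken at day 21. Pups of the EW group were weaned early, at day 15, and 3 further early-weaned groups received human milk oligosaccharides: EW+2'-FL received 2'-fucosyllactose, EW+LNnT received lacto-N-neotetraose, and EW+HMOs received both. The doses, the mouse strain and the day on which early-weaned pups were taken are not given in the sources used here, so a difference in diet and any difference in age between Control and the early-weaned groups cannot be told apart. The comparisons ask which of these P450 genes differ between suckling and early-weaned pups, and whether an oligosaccharide moves them. Libraries are named by group and number, for example FL1 for the first EW+2'-FL library. The labels do not say that the 5 samples of a group came from separate litters or animals, so p-values measure the spread between these samples.

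Family 2 and 3 P450s are haem enzymes of the endoplasmic reticulum that add oxygen to drugs, plant compounds, steroids, bile acids and fatty acids, using electrons passed on by the reductase Por and by cytochrome b5. In the gut they sit in the enterocyte, the first cell to meet compounds from the diet. Many of their genes answer to the nuclear receptors CAR (Nr1i3) and PXR (Nr1i2), and the liver-enriched factors HNF4 and HNF1 and the GATA factors keep them active in enterocytes.

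Promoter sequence is shown for 5 genes that stand for the patterns below. Cyp2b10, Cyp2c29 and Cyp2c68 were lower in every early-weaned library than in every Control library, Cyp3a44 was higher in every one, and Cyp3a11 lies beside Cyp3a44 and did not pass the test. Each window runs from 250 bases before to 50 bases after the gene start on the gene's own strand, from RefSeq on GRCm38.p6. The expression files use GRCm39, so these coordinates differ from those of the files. Capitals mark matches, on either strand, to 4 motifs. AGGTCA is the half-site that nuclear receptors bind. CAAAGTCCA is a site of HNF4. The letters AGATAA stand for the GATA factors. GTTAAT is the half-site of HNF1. A match on the other strand appears as its reverse complement, and none of the matches printed here overlap. The windows are chr7:25897408-25897707 (plus strand) for Cyp2b10, chr19:39286835-39287134 (plus strand) for Cyp2c29, chr19:39741052-39741351 (minus strand) for Cyp2c68, chr5:145805825-145806124 (minus strand) for Cyp3a44 and chr5:145879805-145880104 (minus strand) for Cyp3a11.
Cyp2b10: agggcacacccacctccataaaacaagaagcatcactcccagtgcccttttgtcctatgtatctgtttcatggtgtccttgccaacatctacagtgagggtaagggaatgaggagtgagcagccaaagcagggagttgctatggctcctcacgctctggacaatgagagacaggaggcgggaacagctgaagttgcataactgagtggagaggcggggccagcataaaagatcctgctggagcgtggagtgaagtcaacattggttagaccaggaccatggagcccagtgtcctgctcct
Cyp2c29: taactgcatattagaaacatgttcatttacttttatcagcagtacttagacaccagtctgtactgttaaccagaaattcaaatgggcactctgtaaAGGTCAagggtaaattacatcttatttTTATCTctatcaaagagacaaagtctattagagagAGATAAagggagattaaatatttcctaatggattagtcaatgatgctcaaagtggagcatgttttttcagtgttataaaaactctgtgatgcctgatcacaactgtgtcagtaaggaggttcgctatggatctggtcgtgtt
Cyp2c68: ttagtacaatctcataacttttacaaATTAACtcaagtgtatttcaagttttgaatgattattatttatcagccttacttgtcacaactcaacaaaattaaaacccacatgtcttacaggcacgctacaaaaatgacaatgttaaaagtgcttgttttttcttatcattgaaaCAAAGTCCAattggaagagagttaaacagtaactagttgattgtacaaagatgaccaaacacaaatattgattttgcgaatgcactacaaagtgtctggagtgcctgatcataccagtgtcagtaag
Cyp3a44: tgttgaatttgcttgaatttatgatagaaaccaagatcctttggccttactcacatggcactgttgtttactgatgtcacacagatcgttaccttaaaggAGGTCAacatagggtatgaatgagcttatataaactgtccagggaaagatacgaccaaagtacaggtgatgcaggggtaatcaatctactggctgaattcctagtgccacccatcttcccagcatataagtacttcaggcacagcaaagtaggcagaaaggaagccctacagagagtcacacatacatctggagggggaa
Cyp3a11: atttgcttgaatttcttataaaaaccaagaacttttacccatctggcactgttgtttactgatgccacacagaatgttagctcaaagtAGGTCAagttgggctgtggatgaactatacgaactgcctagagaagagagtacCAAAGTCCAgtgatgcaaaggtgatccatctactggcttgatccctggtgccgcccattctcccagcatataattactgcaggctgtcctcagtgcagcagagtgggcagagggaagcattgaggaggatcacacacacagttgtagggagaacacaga

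The Cyp2b10 window held no exact match to the 4 motifs. Sequence outside the windows and inexact matches were not searched. The Cyp2c29 window held AGGTCA starting 154 bases upstream and AGATAA 127 and 92 bases upstream. The Cyp2c68 window held GTTAAT 224 bases and CAAAGTCCA 77 bases upstream. The neighbours Cyp3a44 and Cyp3a11 both held AGGTCA, 150 and 162 bases upstream, and CAAAGTCCA was found 109 bases upstream of Cyp3a11 and not in the Cyp3a44 window. RefSeq promoters were matched for 43 of the 50 genes. CAAAGTCCA was present in 8 of the 43 (18.6%) against 0.496% of all 27025 promoters searched; 6 of these 8 were Cyp2c genes of the chromosome 19 cluster and the other two were Cyp3a11 and Cyp3a16. AGGTCA was present in 15 (34.9%) against 16.2%, AGATAA in 7 (16.3%) against 11.3%, and GTTAAT in 5 (11.6%) against 7.25%. Members of a tandem cluster share ancestry and promoter sequence, so these are descriptions of the windows and not counts of independent genes.

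The libraries held 58732979 to 89589183 counts each. On the first principal component of the 5000 most variable genes, LNnT1, LNnT2 and FL1 scored 141, 118 and 82.5, EW1 scored 55.2, and the other 21 lay at 13.2 or below. Summed pancreatic acinar markers were between 819 and 10760 CPM in Control2, Control3, EW1, FL5, LNnT1 and LNnT2 and below 20 CPM in all other libraries. In FL2 the 9 enterocyte markers summed to 20749 CPM, the lowest of all libraries, and the smooth muscle markers to 2832 CPM, the highest; FL2 was the lowest library of its group for 22 of the 35 tested P450 genes. Control5 was the lowest Control library for 21 of them. All 9 enterocyte markers had counts in every library, and the 8 hepatocyte markers summed to 3.68 to 19.5 CPM, with 4 of the 8 counted in every library. The groups also differed in the sex of the samples as their transcripts show it. Of the Control libraries 4 held Xist without Y-linked transcripts and 1 held both, whereas of the 20 early-weaned libraries 7 held Xist alone and 13 held Y-linked transcripts alone.

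Expression of the 2 families was concentrated in a few genes. Levels between genes are given as deposited FPKM, which the authors scaled to gene length, averaged over the 25 libraries. Cyp3a13, a Cyp3a enzyme known from mouse intestine, was the most abundant at 557 FPKM and held 30.9% of the summed level. Cyp3a11, the main drug-metabolising Cyp3a of mouse liver, stood at 287 FPKM, Cyp2d26 at 268.5, Cyp2b10 at 169, Cyp3a25 at 115, Cyp2c65 at 113 and Cyp2j6 at 105. These 7 genes held 89.5% of the summed level. The order differed between groups: in Control Cyp2d26 (340.4 FPKM), Cyp2b10 (328) and Cyp3a11 (325) stood together, whereas over the 20 early-weaned libraries Cyp3a11 (277) and Cyp2d26 (250.5) were above Cyp2b10 (129.8). Within libraries, Cyp3a13 was above Cyp3a11 in 23 of 25, Cyp2d26 above Cyp2b10 in 24 and Cyp2j6 above Cyp2c68 in all 25. Cyp3a11 was above Cyp2d26 in 9, Cyp3a25 above Cyp2c65 in 14 and Cyp2c65 above Cyp2j6 in 14, so these neighbours in the order were not set apart. Below them came Cyp2c68 at 63.2 FPKM, Cyp2c66 at 45.4, Cyp2c29 at 17.3, Cyp2c55 at 17.2, Cyp2s1 at 13.3 and Cyp2d22 at 13.2.

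**Figure D1:**
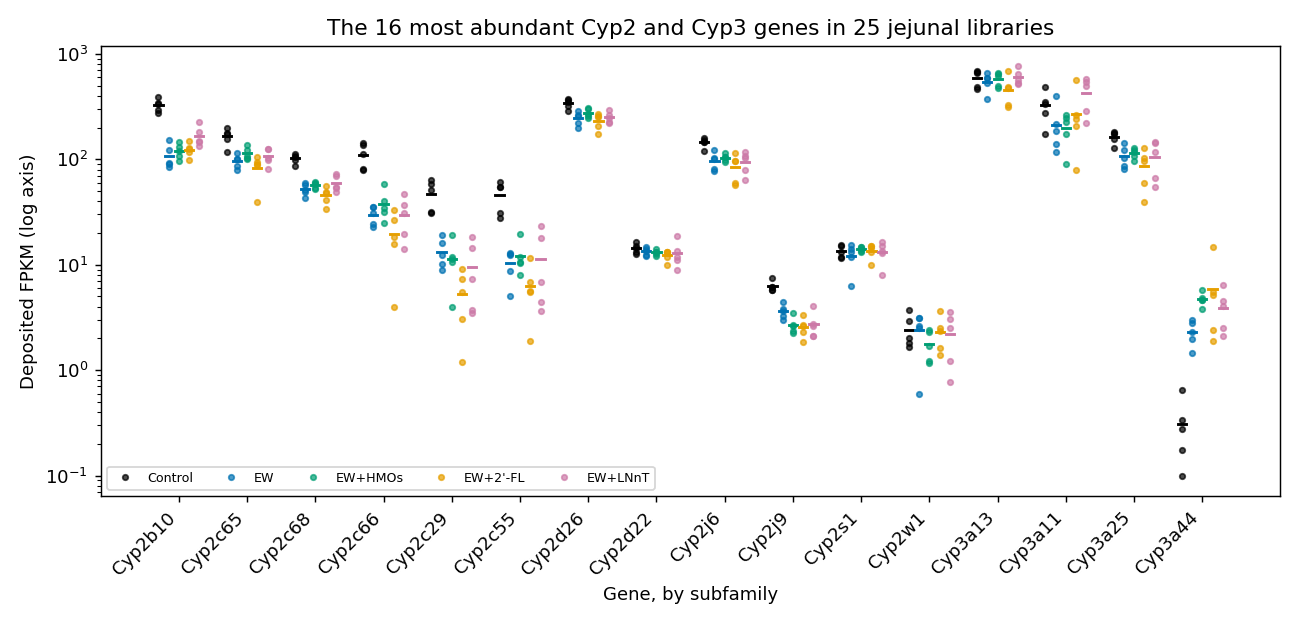
Deposited FPKM (log axis) of the 16 most abundant Cyp2 and Cyp3 genes, ordered by subfamily; each point is 1 library, colours are the 5 groups and horizontal bars are group means. Control points lie above the early-weaned points for Cyp2b10, Cyp2c29, Cyp2c66 and Cyp2c68 and below them for Cyp3a44, while the groups overlap for Cyp3a13 and Cyp3a11.

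The summed FPKM of all 50 genes was 2416 ± 325 in Control (mean ± SD, n = 5 for every group) and 1562 ± 197 in EW. With supplements it was 1912 ± 308 in EW+LNnT, 1670 ± 220 in EW+HMOs and 1464 ± 345 in EW+2'-FL. Every early-weaned mean lay below Control, but Control spanned 1854 to 2630 and the early-weaned libraries 903 to 2407, so single libraries overlapped. The subfamilies differed in how far apart the groups stood. Summed Cyp2b fell outside the Control range in every early-weaned library, at 84.4 to 227 against 273 to 394 FPKM, and summed Cyp2c likewise, at 90.8 to 299.65 against 351 to 576 FPKM. Summed Cyp3a, the subfamily with the largest part of the level, overlapped, at 451 to 1459 against 785 to 1342 FPKM.

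Early weaning, taken as the mean of the 4 early-weaned groups against Control, came with lower expression of 13 of the 35 tested genes and higher expression of 1, Cyp3a44, at an adjusted p under 0.05. All 22131 tested genes entered edgeR's quasi-likelihood test, with Benjamini-Hochberg adjustment over all of them, and 7.68% of them passed (3.63% higher, 4.05% lower), against 40% of the P450 genes. The median log2 change of the 35 was -0.21, and that of all tested genes 0.01. All 20 early-weaned libraries lay below all 5 Control libraries for 5 genes, Cyp2b10, Cyp2c29, Cyp2c66, Cyp2c68 and Cyp2j9, where 0.813% of all tested genes did so. They lay above for Cyp3a44, where 0.253% did. Changes below are log2 differences ± standard error from that test, and levels are CPM, counts scaled to library size with TMM factors. In bulk tissue, fewer cells of a type and less RNA per cell cannot be told apart. The 6 Paneth cell markers, all with counts in every library, summed to 448 to 1489 CPM in Control, 1591 to 2149.8 in EW, 1685 to 2317 in EW+HMOs, 866 to 3932 in EW+2'-FL and 681 to 2365 in EW+LNnT. The 6 goblet cell markers, likewise counted in every library, summed to 2842 to 4344 CPM in Control and 1628 to 2049 in EW+2'-FL, and to 1252 to 5148 over the other three groups. Paneth sums did not overlap between Control and EW or EW+HMOs, nor goblet sums between Control and EW+2'-FL. Hepatocyte sums were 8.01 to 15.7 CPM in Control and 4.17 to 4.94 in EW+HMOs, without overlap. Lung epithelium sums were 2.37 to 3.75 CPM in Control, below the 3.80 to 69.977 of EW and the 4.31 to 6.86 of EW+HMOs. In the remaining early-weaned groups the hepatocyte and lung epithelium sums overlapped Control. The part of these marker sums in the P450 levels was not tested.

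**Figure D2:**
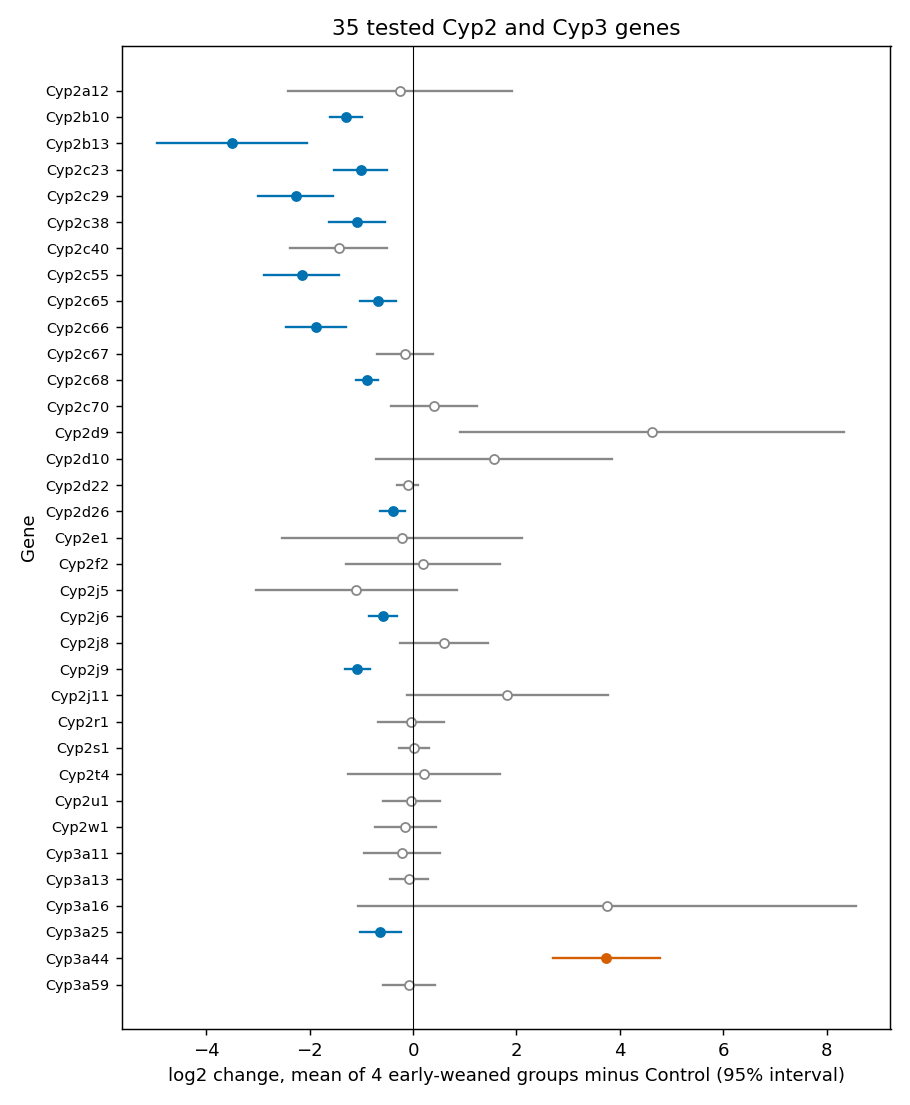
log2 change of each of the 35 tested genes, mean of the 4 early-weaned groups minus Control, with its 95% interval; filled blue points passed the test as lower, the filled orange point as higher, and open grey points did not pass. The Cyp2b genes and most Cyp2c genes lie left of 0, Cyp3a44 alone lies right of 0 as a passed gene, and Cyp3a13, Cyp2s1 and Cyp2d22 sit at 0 with narrow intervals.

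In subfamily Cyp2b, both tested genes fell. Cyp2b10 (ENSMUSG00000030483, a protein-coding gene at chr7:25597045-25626049 on GRCm39) is the classical CAR target of the mouse, which phenobarbital induces. Its level was 823, 646, 803, 772 and 576 CPM in Control1 to Control5 and 382, 195, 271, 180.0 and 196 in EW1 to EW5. It was 226, 346, 312, 273 and 242 CPM in the EW+HMOs libraries, 321, 189, 237, 349 and 291 in EW+2'-FL, and 400.0, 488, 309, 309.5 and 491 in EW+LNnT. Every early-weaned library was below the lowest Control library, and LNnT5, LNnT2 and LNnT1 were the nearest to it. The gene fell 2.45-fold over the 4 groups (-1.29 ± 0.15, adjusted p = 9.4e-06) and passed against Control in each group alone, from -1.56 in EW through -1.38 (EW+2'-FL) and -1.37 (EW+HMOs) to -0.86 (EW+LNnT).

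Cyp2b13, a Cyp2b gene of low level in the gut, rested on 1 library. It had 196 counts in Control4 and 8 to 25 in the other Control libraries, against 0 to 19 in the early-weaned ones. Its change of -3.50 ± 0.70 (adjusted p = 0.0041) became -1.75 without Control4 (adjusted p = 0.2). Cyp2b9, the third gene, had 42 counts over all 25 libraries and was not tested.

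Subfamily Cyp2c had the most members that changed. These enzymes hydroxylate drugs and form epoxides from arachidonic acid, and 12 of the 13 listed genes lie side by side on chromosome 19. Of 10 tested, 7 fell, none rose, and the median change was -1.05. 

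Cyp2c29 (ENSMUSG00000003053, chr19:39257849-39319143) is a phenobarbital-inducible epoxygenase in mouse liver. It stood at 191, 102, 173, 194 and 95.7 CPM in the Control libraries and at 3.32 to 66.9 in the early-weaned ones, with group medians of 39.8 (EW), 28.4 (EW+LNnT), 38.9 (EW+HMOs) and 16.2 (EW+2'-FL). The groups did not overlap. The change was -2.28 ± 0.35 (4.85-fold, adjusted p = 3e-04).

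Cyp2c66 (ENSMUSG00000067229, chr19:39102342-39175516), an epoxygenase described in mouse intestine, stood at 261, 163, 239, 299 and 157 CPM in Control. The early-weaned libraries held 7.05 to 128 CPM, the lowest in FL2 and the highest in HMOs2, and none reached the lowest Control library. Its change was -1.88 ± 0.28 (3.68-fold, adjusted p = 0.00024).

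Cyp2c55 (ENSMUSG00000025002, chr19:38995463-39031137) is a gut and colon P450 that makes a hydroxylated product of arachidonic acid. Its Control libraries held 107, 65.6, 120.2, 132 and 55.5 CPM, and the early-weaned ones 3.40 to 59.9. LNnT2, at 59.9 CPM, was the one early-weaned library above Control5, and the ranges otherwise lay apart. The change was -2.16 ± 0.35 (4.46-fold, adjusted p = 0.00066).

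Cyp2c68 (ENSMUSG00000074882, chr19:39677278-39729498) moved less and varied less. It stood at 179, 180.2, 211, 201 and 148 CPM in Control, and at 75.4 to 109 in EW. The ranges were 93.4 to 127 CPM for EW+LNnT, 95.8 to 119.8 for EW+HMOs and 63.6 to 107 for EW+2'-FL. The lowest Control library was above all 20 others. It fell 1.85-fold (-0.89 ± 0.10, adjusted p = 9.4e-06) and passed in all 4 groups alone.

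The other three that fell were closer to the threshold. Cyp2c65, the most abundant Cyp2c gene and the near neighbour of Cyp2c66, went from 334 to 211 CPM (-0.67 ± 0.17, adjusted p = 0.017), and without Control3 or Control4 it did not pass (-0.63 and -0.59). Cyp2c38 went from 3.86 to 1.88 CPM (-1.09 ± 0.26, adjusted p = 0.014), and without Control1 it did not pass (-0.92, adjusted p = 0.074). Cyp2c23, the mouse renal epoxygenase gene that lies apart from the cluster, went from 5.91 to 3.00 CPM (-1.01 ± 0.25, adjusted p = 0.016), and without Control1 it did not pass (-0.90, adjusted p = 0.067).

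The remaining tested genes of the subfamily did not pass. Cyp2c40 was at 4.14 CPM in Control and 1.54 in the early-weaned groups (-1.44 ± 0.45, adjusted p = 0.051). Cyp2c67 (-0.16 ± 0.26) lies between Cyp2c38 and Cyp2c68 in the cluster. Cyp2c70, which in mouse liver makes muricholic acids, the bile acids particular to rodents, was at 0.951 and 1.35 CPM (0.40 ± 0.40). In chromosomal order, Cyp2c55, Cyp2c65, Cyp2c66, Cyp2c29 and Cyp2c38 fell, Cyp2c67 did not pass (95% interval -0.70 to 0.38), Cyp2c68 fell, and Cyp2c40 and Cyp2c70 (95% interval -0.44 to 1.23) did not pass.

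Near-identical stretches limit how far reads of neighbours can be told apart. Across the longest annotated transcripts, exact 150-base windows shared with another gene made up 29.1% of Cyp2c40, 8.83% of Cyp2c68, 5.47% of Cyp2c66 (all with Cyp2c65) and none of Cyp2c29, Cyp2c55, Cyp2b10, Cyp2j9 or Cyp3a44. How the authors assigned shared reads is not given in the sources used here, so Cyp2c40, Cyp2c67 and Cyp2c69 are uncertain as single genes. Of Cyp2c68, 43.3% of 50-base windows were shared with other genes, and 35.6% with Cyp2c40. Its level is therefore open to the same uncertainty, to a lesser degree.

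**Figure D3:**
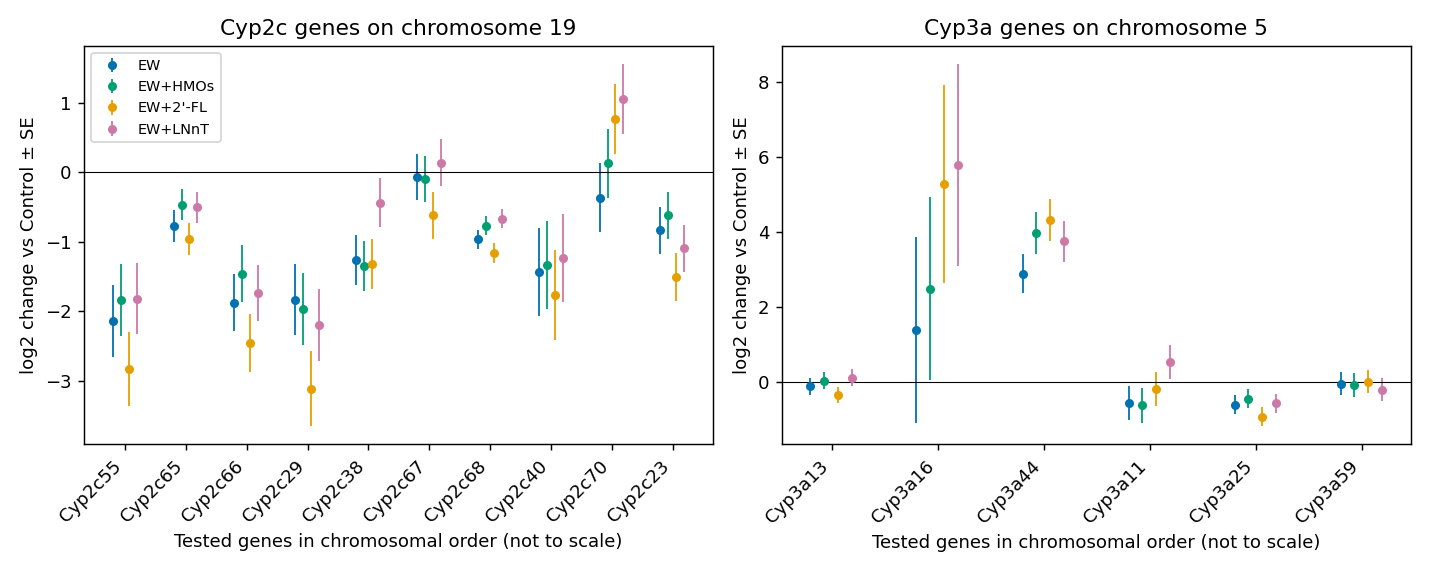
log2 change against Control ± SE in each of the 4 early-weaned groups, for the tested Cyp2c genes of chromosome 19 (left) and Cyp3a genes of chromosome 5 (right), in chromosomal order and not to scale. Cyp2c genes from Cyp2c55 to Cyp2c38 lie below 0 in all 4 groups. Among Cyp3a genes Cyp3a44 lies at 2.89 to 4.33, Cyp3a25 below 0 and Cyp3a11 from -0.63 to 0.53. Cyp3a16, with a median of 0 CPM in every group, is also plotted and did not pass in any group. The 4 groups share the same Control libraries.

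In subfamily Cyp3a, which oxidises drugs, steroids and bile acids, the abundant genes and one scarce gene went different ways. Cyp3a44 (ENSMUSG00000054417, chr5:145710793-145742684), known in mouse liver as a female-predominant Cyp3a, held 0.345, 1.35, 0.735, 0.590 and 0.198 CPM in the Control libraries, which are 15 to 119 counts. It held 6.57, 3.91, 4.796, 5.97 and 2.83 CPM in EW and 10.04, 12.7, 8.35, 9.76 and 10.3 in EW+HMOs. It held 34.4, 3.38, 4.51, 11.1 and 11.8 CPM in EW+2'-FL and 6.34, 11.4, 13.8, 8.07 and 4.22 in EW+LNnT. Every early-weaned library was above every Control library, and FL1 stood far above the rest of its group.

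The rise of Cyp3a44 was 13.4-fold (3.74 ± 0.50, adjusted p = 6.7e-05), and it passed in each group alone, from 2.89 in EW through 3.76 (EW+LNnT) and 3.98 (EW+HMOs) to 4.33 (EW+2'-FL). Without FL1 the EW+2'-FL change against Control was 3.57 and still passed. Among early-weaned libraries the median was 8.35 CPM in the 7 with Xist alone and 8.07 in the 13 with Y-linked transcripts alone, against 0.467 in the 4 Control libraries with Xist alone. Even so, Cyp3a44 contributed 3.43 FPKM on average, against 557 for Cyp3a13.

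The near-identical Cyp3a41a and Cyp3a41b, which lie next to Cyp3a44 on chromosome 5 and of which 82.9% and 82.7% of 150-base windows are shared with each other, did not pass (-0.49 ± 0.86 and -0.47 ± 0.81). Of Cyp3a44 itself, 26.5% of 50-base windows were shared with other genes and no 150-base window was. Summed over Cyp3a44, Cyp3a41a, Cyp3a41b and Cyp3a16, the level was 4.18 ± 1.62 CPM in Control and 8.13 ± 4.74 in EW. It was 19.98 ± 14.8 CPM in EW+LNnT, 11.4 ± 1.63 in EW+HMOs and 19.1 ± 22.5 in EW+2'-FL. These sums spanned 2.14 to 6.37 CPM in Control. EW (2.83 to 15.5), EW+2'-FL (3.38 to 58.1) and EW+LNnT (5.48 to 40.9) overlapped Control, and EW+HMOs (9.65 to 13.5) did not. The part that read assignment among the copies plays was not tested.

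Cyp3a13 (chr5:137891194-137919881), apart from the main Cyp3a cluster, was at 1355 to 2215 CPM in Control and 879 to 2309 in the early-weaned libraries (-0.07 ± 0.18, 95% interval -0.44 to 0.29). The 2 groups overlapped over nearly the whole range. Cyp3a25 went from 357 to 231 CPM (-0.63 ± 0.19, adjusted p = 0.043), close to the threshold: leaving out any 1 of Control1 to Control5, EW2, EW4, EW5, HMOs1 to HMOs5 or LNnT2 gave adjusted p values of 0.05 to 0.15, with changes of -0.72 to -0.58. Cyp3a59 (-0.08 ± 0.24) did not pass, and Cyp3a57, with 73 counts in all, was not tested.

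**Figure D4:**
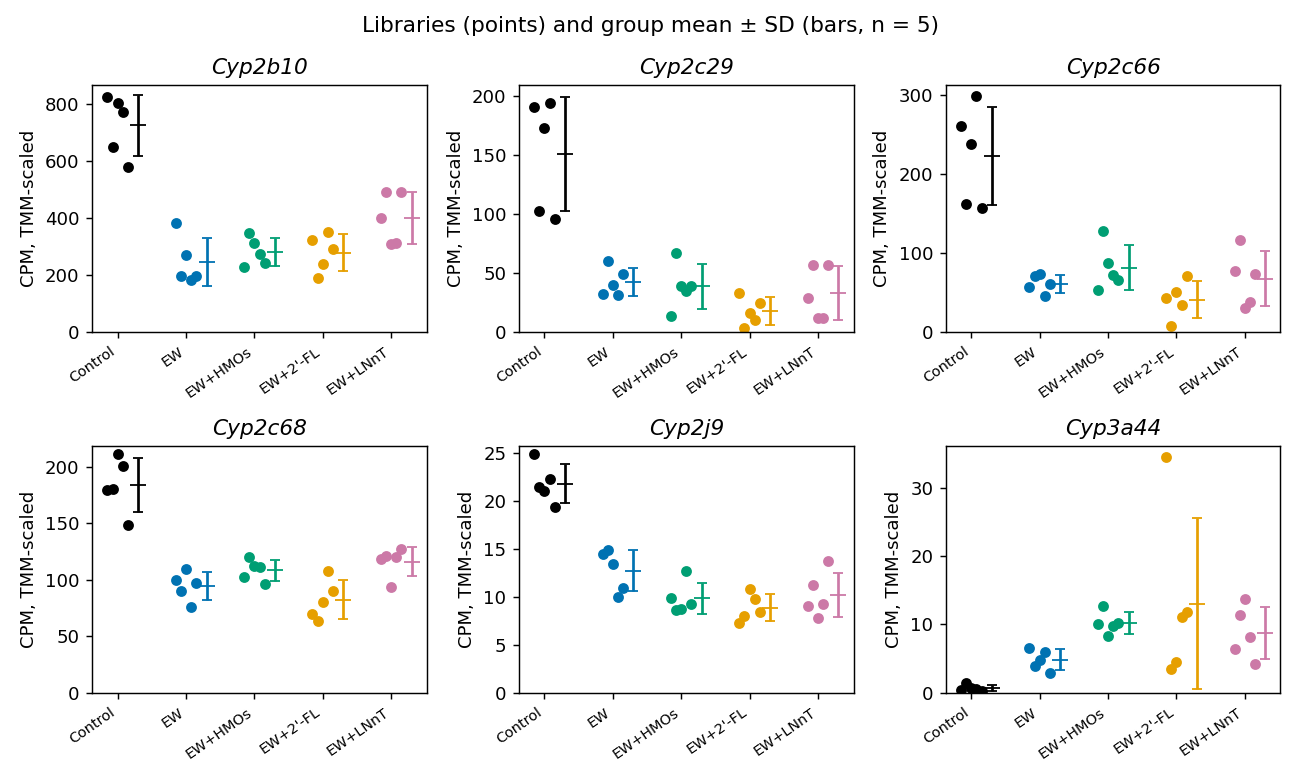
CPM after TMM scaling of 6 genes in the 5 groups; points are libraries and the bar beside each group is its mean ± SD (n = 5). Control points are above all others for Cyp2b10, Cyp2c29, Cyp2c66, Cyp2c68 and Cyp2j9 and below all others for Cyp3a44, whose FL1 point is at 34.4 CPM.

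Cyp3a11 was highest in libraries that stood apart from the rest. It was at 892 to 2626 CPM in Control and 368 to 3785 in the early-weaned libraries (-0.21 ± 0.36, adjusted p = 0.76). The 3 highest libraries were LNnT1 at 3785, FL1 at 3437 and LNnT2 at 3193 CPM, which are also the 3 highest on the first principal component. Within EW, EW1 held 2430 CPM and the next library 1119.7. The same 4 libraries carried most counts of 3 scarce genes. Cyp2d9, a male-predominant steroid hydroxylase of mouse liver, had 311 counts in FL1, 268 in LNnT1, 234 in LNnT2, 90 in EW1 and at most 21 elsewhere. Cyp2d10 had 193, 163, 310 and 79 in those libraries and at most 64 elsewhere. Cyp3a16, a Cyp3a gene of the fetal and newborn mouse liver, had 856, 848, 476 and 74, with 255 in FL4, 199 in HMOs4, 34 in Control1 and 0 in the other 18. The hepatocyte marker sum was 14.2 CPM in FL1, 14.3 in LNnT1, 19.5 in LNnT2 and 11.965 in EW1. This sum was 8.01 to 15.7 CPM in the Control libraries and 3.68 to 8.63 in the other early-weaned libraries. Its part in these levels was not tested.

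**Figure D5:**
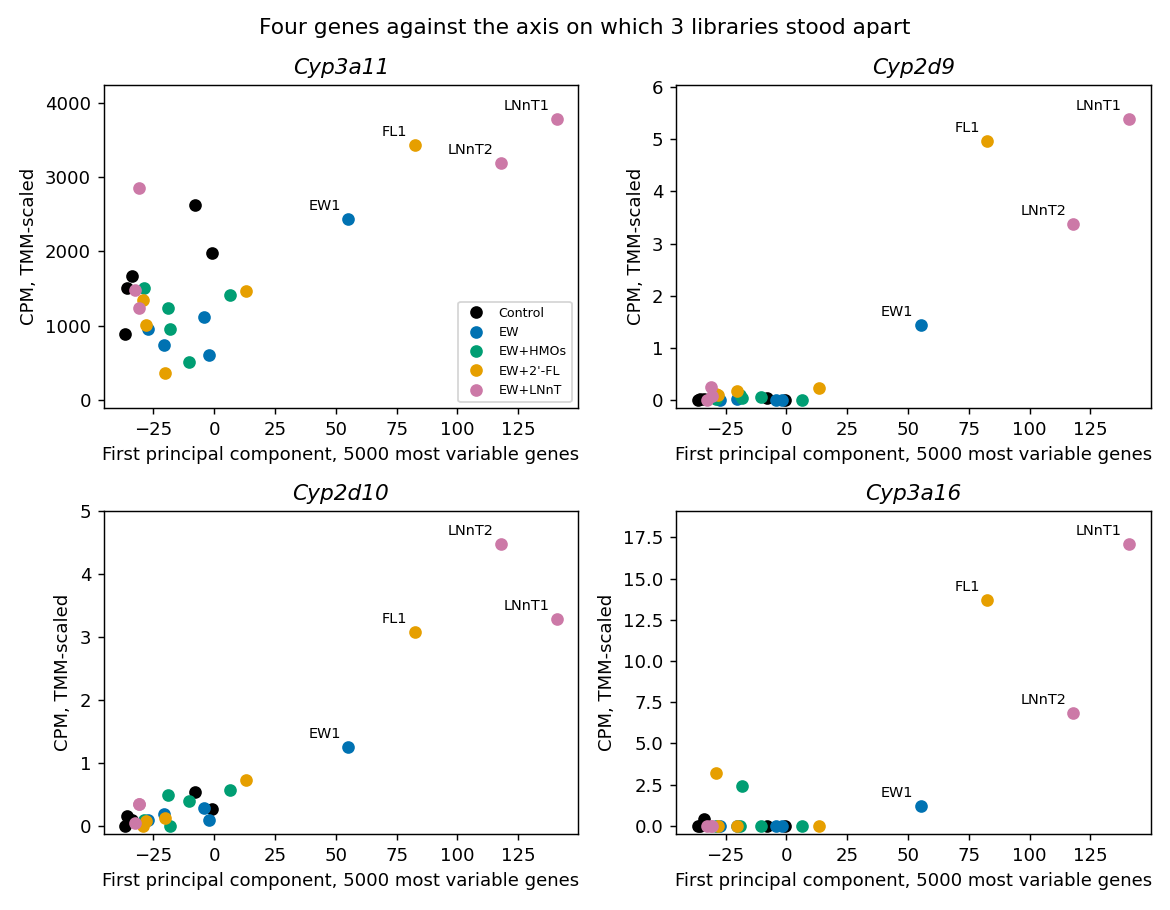
CPM after TMM scaling of Cyp3a11, Cyp2d9, Cyp2d10 and Cyp3a16 (vertical axes) against the first principal component score of each library (horizontal axes, no unit); points are libraries coloured by group. FL1, LNnT1 and LNnT2, and to a lesser degree EW1, lie to the right and hold the high values of the 2 Cyp2d genes; Cyp3a16 is also above 0 in FL4, HMOs4 and Control1.

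Among the other Cyp2 subfamilies, Cyp2j changed most clearly. These enzymes form epoxides and hydroxylated products of arachidonic acid. Cyp2j9 (ENSMUSG00000015224, chr4:96456666-96479815) held 24.9, 21.5, 21.1, 22.3 and 19.4 CPM in Control and at most 14.9 in EW. The other three groups held 8.58 to 12.7, 7.32 to 10.8 and 7.80 to 13.8 CPM. No early-weaned library reached Control. The gene fell 2.11-fold (-1.08 ± 0.12, adjusted p = 4.7e-06), passed in all 4 groups, and had the lowest adjusted p of the 35 genes. Cyp2j6, its abundant neighbour on chromosome 4, went from 549 to 369 CPM (-0.58 ± 0.13, adjusted p = 0.0098). Control5, at 436 CPM, was below 2 of the 20 early-weaned libraries, EW3 and HMOs1; the other Control libraries were at 572 to 583. Cyp2j5, Cyp2j8 and Cyp2j11, each under 2 CPM on average in both groups, did not pass.

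In subfamily Cyp2d, Cyp2d26 went from 639 to 488 CPM (-0.40 ± 0.12, adjusted p = 0.038), and it did not pass without any 1 of Control1 to Control5, EW2, EW4, HMOs1 or HMOs4 (changes of -0.46 to -0.35, adjusted p of 0.05 to 0.16). Cyp2d22, often taken as the mouse counterpart of human CYP2D6, was at 58.6 and 54.5 CPM (-0.11 ± 0.10, 95% interval -0.32 to 0.10). Cyp2d9 and Cyp2d10 did not pass over the 4 groups (adjusted p = 0.11 and 0.41).

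The single-gene subfamilies did not pass. Cyp2s1, an epithelial P450 that acts on retinoids, was at 69.5 CPM in Control and 70.6 in the early-weaned groups (0.02 ± 0.14, 95% interval -0.27 to 0.31). Cyp2u1, a fatty acid hydroxylase, was at 6.54 and 6.55 CPM (-0.04 ± 0.27), Cyp2w1 at 3.86 and 3.49 (-0.15 ± 0.29) and Cyp2r1, a vitamin D 25-hydroxylase, at 1.04 and 1.02 (-0.04 ± 0.31). Cyp2t4 was at 0.375 and 0.463 CPM (0.21 ± 0.71). Cyp2e1, the ethanol-oxidising P450, Cyp2a12 and Cyp2f2, the P450 of airway club cells, were under 1 CPM on average in both groups. Cyp2f2 reached 2.53 CPM in EW3 and at most 0.424 elsewhere, and EW3 also held 69.977 CPM of summed lung epithelium markers, against 11.1 at most elsewhere; their part in the value was not tested.

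The 15 genes with too few counts were Cyp2a5, Cyp2a22, Cyp2b9, Cyp2c37, Cyp2c39, Cyp2c69, Cyp2d11, Cyp2d12, Cyp2d13, Cyp2d34, Cyp2d40, Cyp2j7, Cyp2j12, Cyp2j13 and Cyp3a57. Their totals over all 25 libraries ran from 2 counts for Cyp2a22 to 103 for Cyp2a5, the coumarin hydroxylase of mouse liver. The highest count in a single library was 50, for Cyp2d13 in LNnT2. They were below the filter on low counts and are not compared here.

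In EW alone against Control, 1 of the 35 genes rose and 6 fell, where 0.953% of all tested genes passed, 0.443% higher and 0.511% lower. Without overlap between the groups, 1 was higher and 9 were lower, against 3.52% and 4.97% of all tested genes. Cyp2b10 (-1.56 ± 0.21, adjusted p = 0.00042), Cyp2c68 (-0.96 ± 0.14, adjusted p = 0.00081) and Cyp3a44 (2.89 ± 0.53, adjusted p = 0.0064) passed whichever single library was left out. Cyp2j9 (-0.78 ± 0.16, adjusted p = 0.02) did not pass without Control1, Control3, Control4, EW4 or EW5 (adjusted p of 0.051 to 0.078), and Cyp2c66 (-1.87 ± 0.41, adjusted p = 0.027) not without Control1, Control3, Control4 or any of EW2 to EW5 (0.054 to 0.091). Cyp2c55 (-2.14 ± 0.52, adjusted p = 0.047) lost its call in 17 of 25 omissions and Cyp2b13 (-5.16 ± 1.25, adjusted p = 0.043) in 18. The count of 7 was 3 without Control1, Control3, Control4, EW4 or EW5, 4 without EW2 or EW3, and 12 without FL2; over all omissions of a library 0.257% to 2.35% of all tested genes passed, 1.80% without FL2. With Xist-only libraries, 4 of Control and 1 of EW, Cyp2b10 was at -1.45 (adjusted p = 0.36) and Cyp3a44 at 3.36 (adjusted p = 0.16), the lone EW library being assumed to vary like the other groups.

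No member passed the threshold in a supplemented group against EW in edgeR's test. EW+HMOs and EW+2'-FL each had 0 of 35 genes called, where 0% of all tested genes were called, and EW+LNnT had 0 of 35, where 0.172% were. At an unadjusted p under 0.05 there were 3, 5 and 7 of the 35, against 4.16%, 5.42% and 11.4% of all tested genes. No overlap with EW was found for 1 gene higher and 0 lower in EW+HMOs (background 1.38% and 0.990%), for 0 and 1 in EW+2'-FL (0.407% and 0.425%; Cyp2f2), and for 1 and 0 in EW+LNnT (1.49% and 1.23%; Cyp2b13, on 5 to 14 counts a library). DESeq2 called 0, 0 and 1, against 0.235%, 0.194% and 1.83% of all tested genes. That 1 was Cyp2b10 in EW+LNnT, at 399.57 ± 90.2 CPM (SD, n = 5) against 245 ± 84.3 in EW. Its change was 0.71 ± 0.21 (95% interval 0.28 to 1.13, adjusted p = 0.15 in edgeR and 0.041 in DESeq2). EW1, at 382 CPM, lay within the EW+LNnT range, and the other 4 EW libraries below it.

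Other differences from EW had wide intervals. Cyp3a44 was higher in every EW+HMOs library (8.35 to 12.7 CPM) than in every EW library (2.83 to 6.57), with a change of 1.09 ± 0.49 (95% interval 0.08 to 2.09, adjusted p = 1). In EW+2'-FL the change of Cyp3a44 was 1.44 ± 0.49 (adjusted p = 0.66), and FL2 and FL3 lay inside the EW range; without FL1 the change was 0.67 (adjusted p = 0.8). Cyp3a11 in EW+LNnT was 1.10 ± 0.46 above EW (adjusted p = 0.34). Cyp2c29 in EW+2'-FL was 1.28 lower on the log2 scale (-1.28 ± 0.50, adjusted p = 0.77), and Cyp2j9 there -0.52 ± 0.16 (adjusted p = 0.55). A miss of the threshold does not show that these levels were alike.

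Against Control, each supplemented group was compared with the same Control libraries. EW+HMOs had 1 gene higher and 4 lower (background 1.85%, 0.917% higher and 0.935% lower). EW+2'-FL had 1 higher and 9 lower (background 2.54%, 1.07% and 1.48%), and EW+LNnT 2 higher and 8 lower (background 10.6%, 6.68% and 3.93%). Without overlap, EW+HMOs had 1 gene higher and 7 lower (7.90% and 8.24% of all tested genes), EW+2'-FL 2 and 13 (1.98% and 3.66%), and EW+LNnT 1 and 7 (5.37% and 5.97%). At an unadjusted p under 0.05 the counts were 17 in EW (3092 of all tested genes), 12 in EW+HMOs (18.6%), 17 in EW+2'-FL (17.3%), 18 in EW+LNnT (27.1%) and 16 over the 4 groups (24.6%). Cyp2b10, Cyp2c68, Cyp2j9 and Cyp3a44 passed in all 4 early-weaned groups. Cyp2c29 fell by 3.11 in EW+2'-FL, 2.19 in EW+LNnT and 1.97 in EW+HMOs on the log2 scale, the last of these lost in 18 of 25 omissions of a library, and was -1.83 in EW (adjusted p = 0.091). Cyp2c66 fell in EW+2'-FL (-2.45) and EW+LNnT (-1.74), and was -1.46 in EW+HMOs (adjusted p = 0.058). The second gene that rose in EW+LNnT was Cyp2d9 (6.80 ± 2.01, adjusted p = 0.033), on the counts of LNnT1 and LNnT2 given above and 0 to 3 counts a Control library; it did not pass without either of them or without any single Control library (adjusted p of 0.05 to 0.09). Without FL2, the library of few enterocyte markers, EW+HMOs had 8 genes called in place of 5, and 5.07% of all tested genes in place of 1.85%.

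Genes that work with these enzymes were taken from 4 lists. Of 20 xenobiotic receptors and partners, 2 rose and 1 fell over the 4 early-weaned groups, where 3.63% of all tested genes rose and 4.05% fell; the list's median was 0.20. Against Control in single groups, 6 of the 20 rose in EW+LNnT, 2 in EW+2'-FL, 1 in EW+HMOs and 1 in EW. The shares of all tested genes that rose were 6.68%, 1.07%, 0.917% and 0.443%. In EW+HMOs 1 of the 20 fell (0.935% of all tested genes), and in the other groups none did. Over the 4 groups, the receptor genes Nr1i3, Nr1i2 and Ahr did not pass. Nr1i3 (CAR) was at 109 CPM in Control and 123 in the early-weaned groups (0.17 ± 0.11, 95% interval -0.05 to 0.38), and Nr1i2 (PXR) at 163 and 187 (0.20 ± 0.15). Ahr was at 26.7 and 28.7 CPM (0.10 ± 0.16) and Hnf4a at 482 and 478 (-0.01 ± 0.18). The coactivators Ncoa1 (0.87 ± 0.15, adjusted p = 0.001) and Ppargc1a (0.71 ± 0.17, adjusted p = 0.015) rose, and Nr0b2, the bile-acid-responsive corepressor SHP, fell (-1.98 ± 0.40, adjusted p = 0.0042).

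Of 15 electron donors and haem genes, 1 rose and 3 fell (background 3.63% and 4.05%), with a median of -0.21. Cyb5a, the cytochrome b5 that passes electrons to P450s, held 295, 228, 317, 259.83 and 287 CPM in Control and 98.1 to 203 in the early-weaned libraries. The groups did not overlap, and it fell 1.89-fold (-0.92 ± 0.11, adjusted p = 1.5e-05). Por, the main electron donor, did not pass and was at 291 and 405 CPM (0.46 ± 0.27, adjusted p = 0.29). Its highest libraries were FL1 at 869.92 and LNnT1 at 843 CPM. Fech, which puts iron into haem, rose (0.67 ± 0.20), and Hmox2 (-0.46 ± 0.10) and Urod (-0.41 ± 0.10) fell.

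Of 22 other detoxification genes that CAR or PXR regulate, 6 fell and none rose (background 4.05% and 3.63%), with a median of -0.22. Ces2a, a carboxylesterase, held 481 to 721 CPM in Control and 44.7 to 285 in the early-weaned libraries, with no overlap (-2.08 ± 0.30, adjusted p = 0.00018). Aldh1a1, a retinaldehyde dehydrogenase, fell by 1.84 ± 0.31 on the log2 scale, with no overlap either. Ugt1a1, the bilirubin glucuronosyltransferase, fell by 0.71 ± 0.14, Gstm3 by 1.64 ± 0.48, Aldh1a7 by 0.74 ± 0.21 and Ces2e by 0.41 ± 0.13. The other 16 did not pass, among them the efflux pump Abcb1a (0.62 ± 0.26, adjusted p = 0.14). Of 12 tested P450 genes of families 1 and 4, 5 fell and none rose (background 4.05% and 3.63%), with a median of -0.85. Cyp4a10, a fatty acid hydroxylase and PPARA target, fell from 9.79 to 1.296 CPM (-3.11 ± 0.38) and Cyp4f16 from 149.8 to 72.5 (-1.06 ± 0.15), both with no overlap. Cyp1a1, the AHR target, was at 8.55 to 206.5 CPM in Control and 0.302 to 12.3 in the early-weaned libraries (-4.83 ± 0.55), and HMOs2 was the one early-weaned library above the lowest Control library. Cyp1a2 and Cyp4a31, also lower, were at 1.13 and 0.184 CPM in Control and near 0 elsewhere, so their fold is not given.

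Of the 14 P450 genes that passed over the 4 early-weaned groups, 7 passed under each of the 34 alternatives run: Cyp2b10, Cyp2c29, Cyp2c55, Cyp2c66, Cyp2c68, Cyp2j9 and Cyp3a44. These alternatives included the 11 libraries with Xist alone, 4 of Control and 7 early-weaned, where 8 P450 genes passed against 0.828% of all genes tested in that fit, and the fit without the 6 libraries with pancreatic transcripts, where 8 passed against 2.85%. Among libraries with Xist alone, Cyp2b10 held 576 to 823 CPM in Control and 189 to 488 in the early-weaned groups, and Cyp2c66 held 157 to 299 and 7.05 to 117. Sex was not balanced between Control and the early-weaned groups, and it was examined here within those 11 libraries and with a Y-linked covariate. Those 11 hold 1 library of EW (EW3) and 1 of EW+2'-FL (FL2), each assumed to vary like the other groups. FL2, the library with the lowest enterocyte marker sum, held the 7.05 CPM of Cyp2c66. LNnT1 and LNnT2, which stood apart on the first principal component, are also among the 11.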

How the data were processed

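Jejunal poly(A) RNA of 25 samples was made into libraries that mark the RNA strand, per the labels' protocols. The submitters' processing notes name HISAT2 2.2.1, cutadapt 1.9 and StringTie 2.1.6, as well as edgeR and DESeq2, with build GRCm39; their order, the annotation and the assignment of reads shared by paralogs are not stated there. One deposited table gives raw counts per gene. Another, also deposited by the authors, gives FPKM, a value per length and depth, used here for levels between genes and for 1 repeat of the tests.

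Of 57132 genes, 35723 had a count and 22131 passed edgeR's filterByExpr. Counts were fitted with edgeR 4.0.16 (R 4.3.3; TMM, robust quasi-likelihood, all 25 libraries in 5 groups), and a gene was called at a Benjamini-Hochberg adjusted p under 0.05 over all tested genes, in 8 comparisons. Intervals are 95%. CPM are counts divided by the TMM-scaled library size. The members and gene lists were chosen with earlier results of these data known. P450 genes named are those called in at least 1 comparison, the most abundant of each subfamily and the 5 most abundant of all; others are named to complete a subfamily. From each pathway list, called genes are named, up to 6, with Nr1i2, Nr1i3, Ahr and Por; Hnf4a and Abcb1a are named beyond this rule.

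Alternatives were DESeq2 1.42.0 (test, and size factors), limma 3.58.1 on log2(FPKM + 1), no filter, only the groups compared, a replicate block, a Y-linked covariate, 3 subsets of libraries and each library left out. Same-numbered libraries of different groups were not treated as paired. Of 50 such pairs, 11 had correlated deviations above 0.1, and all 50 ran from -0.27 to 0.50. Libraries with unlike numbers were not correlated, so these values cannot show whether the numbers mark pairs.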

Additional observations from a re-analysis of the deposited data

Results flagged for a closer look

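In 17 of 125 groups checked, 1 library lay far from the rest of its group. The cut flags about 1 in 20 groups of independent, normally distributed values, here 6.25. These genes share the same libraries, and Cyp2a12 in EW+HMOs had no counts outside HMOs2, so 6.25 is not a chance rate for these data. Values are CPM after TMM scaling. In Control, Cyp2b13 was highest in Control4 at 2.41 and Cyp2j6 lowest in Control5 at 436. In EW, EW1 was highest for Cyp3a11 at 2430.0, for Cyp2c38 at 2.58 and for Cyp2d9 at 1.43, and lowest for Cyp2w1 at 1.08, and EW3 was highest for Cyp2f2 at 2.53. In EW+HMOs, HMOs2 was highest for Cyp2a12 at 0.19958 and for Cyp2b13 at 0.137. In EW+2'-FL, FL1 was highest for Cyp3a44 at 34.4, for Cyp2d9 at 4.97 and for Cyp2a12 at 0.336, FL2 was lowest for Cyp2d26 at 279 and for Cyp2s1 at 44.8, and FL3 was highest for Cyp2e1 at 6.18. In EW+LNnT, LNnT3 was lowest for Cyp2c68 at 93.4 and LNnT2 lowest for Cyp2s1 at 50.0 (50.016).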

How the results depend on the processing

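Counts of called P450 genes moved by over 1.5 times as follows, each with the share of all genes tested in the same fit that was called. For EW against Control the 7 (0.953%) became 14 (8.23%) with only the groups compared, 11 (4.92%) without FL1, LNnT1 and LNnT2, 4 (1.00%) without the libraries with pancreatic transcripts, 3 (0.262%) with the Y-linked covariate and 0 (0.0162%) in libraries with Xist alone. For EW+HMOs against Control the 5 (1.85%) became 13 (25.1%) with only the groups compared, 9 (5.59%) with DESeq2, 8 (2.78%) with limma on FPKM, 8 (7.67%) without FL1, LNnT1 and LNnT2, and 1 (0.069%) in libraries with Xist alone. For EW+LNnT against Control the 10 (10.6%) became 6 (4.22%) with no filter on low counts and 4 (1.31%) without the pancreatic libraries. For the 4 early-weaned groups against Control the 14 (7.68%) became 8 (2.85%) without the pancreatic libraries and 8 (0.828%) in libraries with Xist alone. For EW+LNnT against EW the 0 (0.172%) became 1 (1.83%) with DESeq2. The cause was not tested; subsets hold fewer samples.

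Leaving out 1 library gave, against Control, 3 to 12 calls for EW (0.257% to 2.35% of all tested genes), 4 to 8 for EW+HMOs (0.748% to 5.07%), 8 to 14 for EW+2'-FL (0.846% to 6.45%), 6 to 11 for EW+LNnT (3.10% to 14.7%) and 10 to 16 for the 4 groups (1.98% to 14.5%), and 0 in each comparison with EW. The replicate block gave 5, 4, 11, 10 and 14 in the same order against Control (0.940%, 1.80%, 2.72%, 10.2% and 8.11%) and 0 against EW. Whether the replicate numbers mark pairs is not known. One change reversed: Cyp3a44 in EW+2'-FL against EW was -0.52 in libraries with Xist alone, which leave 1 library in each of these 2 groups, assumed to vary like the rest. The filter on low counts left out 15 of the 50 genes.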
